A study of Homo sapiens with 36 samples.

Results

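The BCL2 family decides, at the mitochondrial outer membrane, whether a cell under stress starts apoptosis. The 10 members described here were chosen by gene symbol: the anti-apoptotic genes BCL2, MCL1, BCL2L1 and BCL2A1, the BH3-only genes BCL2L11, BBC3, PMAIP1 and BID, and the effector genes BAX and BAK1. All 10 were matched by Ensembl ID among the 58302 gene IDs of the count files. They were measured by RNA sequencing in 36 libraries from JEKO, MINO and UPN-1, which are 3 established lines of mantle cell lymphoma, a B-cell tumour. Cells of each line were grown with the solvent DMSO or with GS716054, an inhibitor of the KDM5 histone lysine demethylases, and were collected at 24 h or 72 h. The 12 groups held 3 libraries each, which the labels call biological replicates. All groups shared the same culture medium, no genetic change is named in the labels, and the dose of GS716054 is not given in the sources used here. Whether the replicates were separate cultures is not stated, so the p-values measure the spread between these libraries, which may be in part technical.

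Effectors BAX and BAK1 form the pores that release cytochrome c, after which caspases are activated. Anti-apoptotic members hold the effectors and the BH3-only proteins in check by binding their BH3 helix, and BH3-only members free or activate the effectors when a stress signal induces them. BCL2, the founding member, was found at a lymphoma translocation and is the target of the BH3 mimetic venetoclax, while MCL1 and BCL2L1 can substitute for it in B-cell tumours.

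Reads assigned to genes ranged from 8784815 to 14970876 a library, with a median of 11926903. Values below are CPM, reads per library scaled to a common size after TMM normalisation, and 3 reads corresponded to 0.196 to 0.353 CPM. Some groups of 3 libraries are said below to lie apart from, above or below another group. The share of all genes that did so is not given, so these statements are descriptions. The 7 B-cell markers checked were each above 1 CPM in all libraries, as were CCND1 and SOX11, markers of mantle cell lymphoma. The T-cell list reached at most 72.3 CPM summed over 6 genes, in MINO. There CD2 and CD3D were at 0 and CD3G had at most 0.18 CPM. CD8A, however, had 3.65 to 29 CPM in the MINO libraries, CD4 0.529 to 40.3 and CD3E 0.643 to 4.13. The myeloid list reached at most 8.57 CPM. The epithelial and stromal list reached at most 20.0 CPM, in MINO, where EPCAM had 6.21 to 16 CPM. The MINO 72 h libraries numbered 2, with DMSO and with GS716054, were the furthest from their replicates. Their chi-square per degree of freedom was 52.0 to 86.5, against 3.20 to 49.1 in the other 32 pairs. The gap was small: replicates 1 and 2 at 72 h had 52.0 for MINO with GS716054 and 49.1 for JEKO with DMSO. No pair of replicates agreed within sampling noise. Counts of calls for GS716054 in MINO, for MINO over time and among lines at 72 h are therefore also given without both MINO 72 h libraries numbered 2. This was chosen after seeing the data, and no such pair was left out in JEKO or UPN-1.

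MCL1 was the most abundant anti-apoptotic member per kilobase of exon in every library. Levels of different genes are compared here on that scale, as a description. The scale divides by the exon length pooled over all isoforms, 12612 bases for BCL2 and 6222 for MCL1, and the order depends on it. In the MINO DMSO 72 h library numbered 2, BCL2 had 430 CPM and MCL1 230 CPM, but 34.1 and 37.0 CPM per kb. The median of MCL1 over the 12 libraries of a line was 58.6 CPM per kb for JEKO, 50.8 for MINO and 51.7 for UPN-1. BCL2L1, which encodes BCL-XL, had medians of 9.72, 19.0 and 18.8 CPM per kb in the same order. BCL2 had medians of 8.98 and 12.6 CPM per kb in JEKO and MINO but 0.220 in UPN-1. Of the length-scaled reads over the 4 anti-apoptotic genes, MCL1 took 65.2% to 78.4% for JEKO, 40.8% to 62.3% for MINO and 63.7% to 80.01% for UPN-1. The ratio of MCL1 to BCL2 per kb had a median of 6.46 for JEKO, 4.61 for MINO and 246 for UPN-1.

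**Figure D1:**
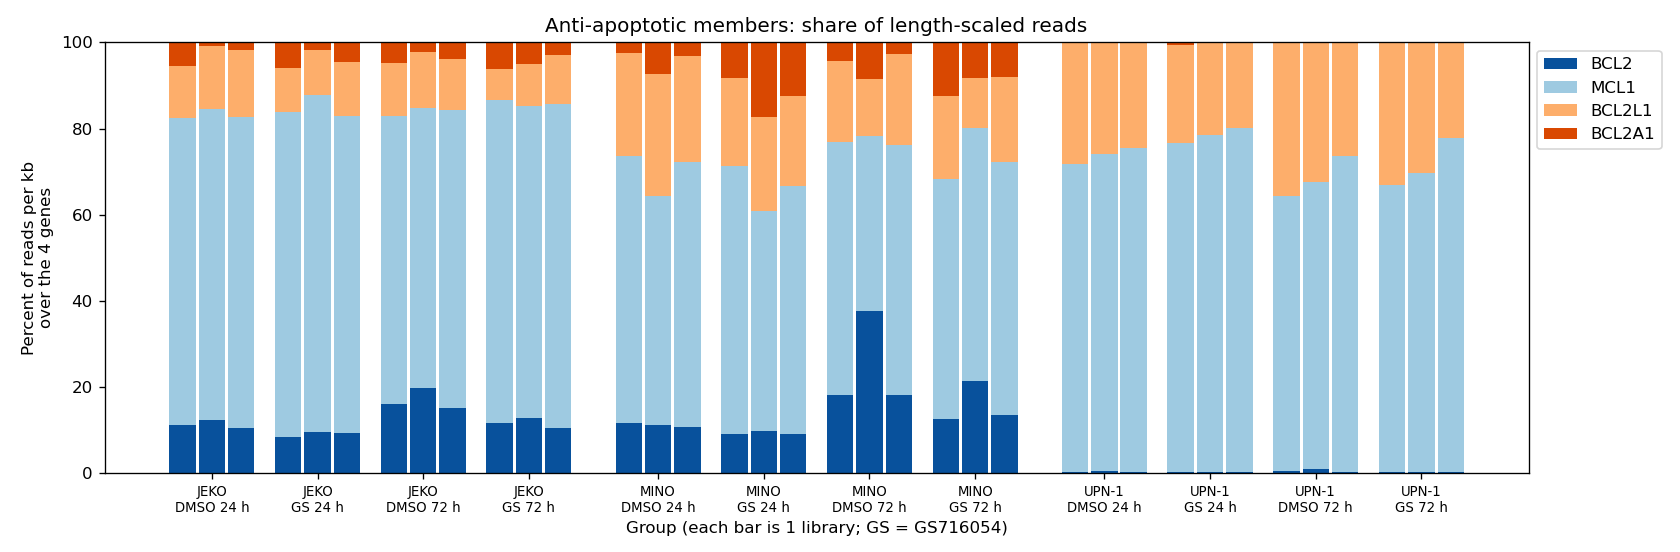
Percent of length-scaled reads (vertical axis) that each anti-apoptotic gene took in each of the 36 libraries (1 bar a library, 3 a group). BCL2 is almost invisible in UPN-1, where its share was 0.146% to 0.823%, and BCL2A1 reached 17.2% in 1 MINO library.

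Among the pro-apoptotic members, PMAIP1, which encodes NOXA, a binder of MCL1, had the highest median per kb in JEKO (59.9) and MINO (70.3), and 24.3 CPM per kb in UPN-1. BAK1 had 21.1, 30.0 and 31.8 CPM per kb in the same order, and the ranges of BAK1 (24.3 to 36.4) and PMAIP1 (20.4 to 32.4) in UPN-1 overlapped. BAX followed with 14.2, 29.7 and 18.7 CPM per kb, and in MINO the ranges of BAX (23.4 to 38.3) and BAK1 (21.4 to 36.2) overlapped. BID, which links death receptors to mitochondria, had 11.6, 10.4 and 9.20 CPM per kb. BBC3, which encodes the p53 target PUMA, had 6.82, 8.92 and 2.61. BCL2L11, which encodes BIM, was lowest of the BH3-only genes in each line, at 0.0125, 0 and 0.135 CPM per kb.

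**Figure D2:**
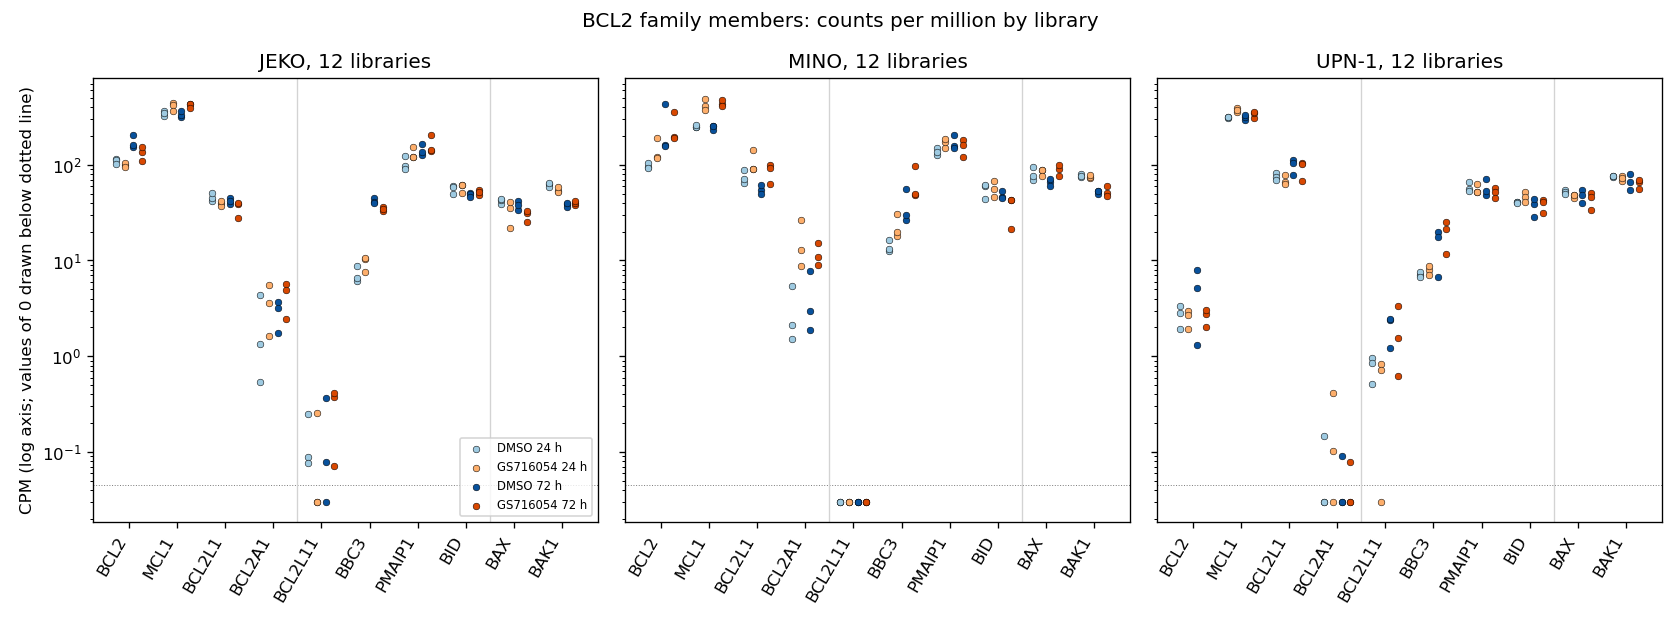
CPM (vertical log axis, values of 0 drawn below the dotted line) of the 10 members in JEKO, MINO and UPN-1, with 1 point a library, 3 points a group and colours for treatment and time. UPN-1 is low in BCL2 (1.31 to 7.91 CPM) and BCL2A1, and all 12 MINO points of BCL2L11 are at 0.

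BCL2 set UPN-1 apart from the other lines. With DMSO at 24 h, UPN-1 had 2.80, 3.32 and 1.91 CPM of BCL2, JEKO had 114, 112 and 102 CPM, and MINO had 94.3, 105 and 91.5 CPM. The UPN-1 libraries did not overlap with those of either other line, and in none of its 12 libraries did BCL2 exceed 7.91 CPM. Its log2 fold change in UPN-1 was -5.38 ± 0.42 (SE) against JEKO and -5.20 ± 0.42 against MINO, with adjusted p of 4.78e-12 and 8.34e-12 (edgeR, quasi-likelihood test over all 36 libraries). Between MINO and JEKO the BCL2 difference was -0.18 ± 0.32, with an adjusted p of 0.679. BCL2 lies on chromosome 18 at 63123346 to 63320128 on the minus strand (GRCh38, GENCODE v44), and its counts pool all isoforms.

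BCL2A1, an NF-kappaB target that encodes BFL-1, was close to absent from UPN-1. Its counts over the 12 UPN-1 libraries were 0 in 7 of them and at most 4, with 9 reads in all, whereas JEKO had 490 reads and MINO 1092. With DMSO at 24 h the 3 libraries together held 2 reads in UPN-1, 72 in JEKO and 101 in MINO. Scaled for depth, JEKO was 33.2 times UPN-1 (95% exact interval 8.85 to 279) and MINO 53.4 times UPN-1 (14.4 to 447), where the intervals cover counting error only. Single libraries carried much of both ratios. Both UPN-1 reads were in replicate 3, without which JEKO was at least 13.1-fold and MINO at least 21.0-fold higher (against 3 reads over the 2 libraries left). These limits take the JEKO and MINO reads as counted, without their counting error or the spread between libraries. JEKO replicate 1 held 49 of the 72 JEKO reads, and without it JEKO was 15.3 times UPN-1 (3.79 to 134). MINO replicate 2 held 64 of the 101 MINO reads, and without it MINO was 31.1 times UPN-1 (8.02 to 266). The edgeR adjusted p was 5.08e-04 against JEKO and 8.03e-05 against MINO.

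BCL2L11 had no read in any of the 12 MINO libraries, which allows up to 0.196 to 0.353 CPM a library. JEKO had 26 reads over 12 libraries, with 0 in 3 of them and at most 6, and UPN-1 had 183 reads with at most 43 in 1 library. The UPN-1 values were 0.965, 0.857 and 0.513 CPM with DMSO at 24 h and 2.38, 2.45 and 1.23 CPM with DMSO at 72 h. Against the limit of 3 reads over the MINO group, UPN-1 was at least 7.88-fold higher at 24 h (25 reads against 0) and at least 25.2-fold higher at 72 h (72 reads against 0). These limits take the UPN-1 reads as counted, without their counting error or the spread between libraries. Leaving out 1 MINO library, which makes the same 3 reads a larger share, lowered these limits to 4.96 at 24 h (without replicate 2) and 15 at 72 h (without replicate 3). The edgeR adjusted p for UPN-1 against MINO at 24 h was 0.00455. UPN-1 was 5.43 times JEKO at 24 h by reads (25 against 5, 95% exact interval 2.04 to 18.2), with an adjusted p of 0.0640, and 9.05 times without JEKO replicate 3 (2.26 to 78.9).

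BCL2L11 lies on chromosome 2 at 111119378 to 111168444, plus strand, and its neighbours on the same stretch were read in MINO. ANAPC1, a subunit of the anaphase-promoting complex, had 65.4 to 118 CPM in the MINO libraries, and BUB1, a mitotic checkpoint kinase, had 78.9 to 252 CPM. The nearest neighbours were low there: ACOXL, an acyl-CoA oxidase-like gene, had 0.176 to 2.14 CPM in MINO, and the non-coding MIR4435-2HG, which runs on the opposite strand, had 0 to 0.812 CPM. Both were higher in UPN-1, with 1.75 to 6.04 CPM of ACOXL and 2.84 to 9.96 CPM of MIR4435-2HG, and the medians of ACOXL, MIR4435-2HG and BCL2L11 had the same order of lines. The ribosomal pseudogene RPL22P12 had another order, with medians of 1.07 CPM in UPN-1, 0.41 in MINO and 0 in JEKO. The MIR4435-2HG exons cover 10.8% of the BCL2L11 exon length, and the strand setting of the counting is not given in the sources used here.

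The regions upstream of the start sites of BCL2A1, BBC3 and BCL2L11 are printed because BCL2A1 had the largest fold change of the members under treatment in MINO, BBC3 the largest with time in JEKO, and BCL2L11 no reads in MINO. They are RefSeq sequences of GRCh38.p14, 5′ to 3′ on the strand of the gene, at chr15:79971197-79971446 (minus), chr19:47232767-47232917 (minus) and chr2:111120664-111120913 (plus). Capitals mark each CG in BCL2A1 and BCL2L11 and the palindrome CACGTG, the E-box letters, in BBC3. For BBC3 the stretch stops at the first annotated exon base. The 250-base BBC3 window counted below (chr19:47232668-47232917) runs on into the annotated gene. The BCL2L11 stretch lies inside the GENCODE gene span, which starts at 111119378. It is thus upstream of a RefSeq start site and not of the whole gene.
BCL2A1: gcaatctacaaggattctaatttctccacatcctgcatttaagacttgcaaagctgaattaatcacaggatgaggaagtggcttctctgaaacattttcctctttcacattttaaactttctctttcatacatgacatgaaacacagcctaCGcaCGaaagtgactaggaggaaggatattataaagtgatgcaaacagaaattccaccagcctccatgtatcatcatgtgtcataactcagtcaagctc
BBC3: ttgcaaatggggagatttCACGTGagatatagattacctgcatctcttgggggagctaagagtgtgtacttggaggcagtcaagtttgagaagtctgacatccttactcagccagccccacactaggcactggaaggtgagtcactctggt
BCL2L11: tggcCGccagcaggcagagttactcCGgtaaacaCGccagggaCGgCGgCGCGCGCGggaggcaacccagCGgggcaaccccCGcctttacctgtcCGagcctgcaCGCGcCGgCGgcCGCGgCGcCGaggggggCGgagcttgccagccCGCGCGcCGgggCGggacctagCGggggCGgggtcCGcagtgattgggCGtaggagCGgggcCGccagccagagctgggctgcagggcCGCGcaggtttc
In the 250 bases upstream, BCL2L11 held 34 CG pairs, BBC3 4 and BCL2A1 2, and the median over 34788 distinct promoter windows of that length was 11. BCL2L11 exceeded 93.2% of those windows and BCL2A1 14.7%. The letters CACGTG occurred in the BBC3 window and in 6.31% of all windows, TATAAA (either strand) in the BCL2A1 window and in 10.8% of all, and GGGCGG (either strand) in the BCL2L11 window and in 42.6% of all. CACGTG also occurred upstream of BAX and of 2 of the 5 BID entries. The RefSeq table had entries for 9 of the 10 members, without MCL1.

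The other members differed less between the lines with DMSO at 24 h. With edgeR over 36 libraries, 5 of 10 members passed an adjusted p of 0.05 for MINO against JEKO, 6 for UPN-1 against JEKO and 8 for UPN-1 against MINO, where 48%, 44.9% and 44.4% of the 17980 genes tested passed. The members' counts thus lie near the share of all genes in the first comparison and somewhat above it in the other 2. The median log2 fold change of the members was 0.37, -0.07 and -0.55, against -0.07, -0.04 and 0.03 over all genes.

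BAX was higher in MINO, with 68.9, 76.4 and 93.8 CPM against 38.7, 42.3 and 43.9 CPM in JEKO, and the groups did not overlap (log2 fold change 0.94 ± 0.17, adjusted p = 3.13e-05, edgeR). UPN-1 lay between them with 54.0, 51.7 and 49.3 CPM, below MINO (-0.63 ± 0.17, adjusted p = 0.00303) and 0.31 ± 0.17 from JEKO (adjusted p = 0.141). PMAIP1 was lowest in UPN-1, with 65.3, 56.4 and 52.8 CPM against 124, 96.6 and 90.1 in JEKO and 127, 148 and 137 in MINO. Its log2 fold change in UPN-1 was -0.83 ± 0.18 against JEKO (adjusted p = 3.41e-04) and -1.24 ± 0.18 against MINO (adjusted p = 1.31e-06). BCL2L1 was lower in JEKO, at 41.6, 44.5 and 50.4 CPM, than in MINO (64.5, 88.5 and 71.1 CPM, 0.72 ± 0.19, adjusted p = 0.00220) and UPN-1 (82.3, 75.1 and 69.1 CPM, 0.73 ± 0.19, adjusted p = 0.00199). MINO and UPN-1 differed in BCL2L1 by 0.01 ± 0.19, with an adjusted p of 0.981. Exons of the opposite-strand gene ABALON cover 41.3% of the BCL2L1 exon length, so part of these reads could not be told apart by gene without strand.

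With DMSO at 24 h MCL1 was lowest in MINO, with 247, 248 and 262 CPM, against 362, 325 and 349 in JEKO (MINO against JEKO -0.45 ± 0.11, adjusted p = 0.00121) and 308, 317 and 316 in UPN-1 (UPN-1 against MINO 0.32 ± 0.11, adjusted p = 0.0223). BBC3 was higher in MINO (12.6, 16.3 and 13.04 CPM) than in JEKO (6.17, 8.71 and 6.56 CPM, 0.96 ± 0.33, adjusted p = 0.0150) and UPN-1 (7.05, 7.60 and 6.74 CPM, UPN-1 against MINO -0.97 ± 0.33, adjusted p = 0.0163). At 72 h the MINO against JEKO difference in BBC3 was -0.18, with an adjusted p of 0.637. BAK1 and BID differences were small: BAK1 was 0.33 ± 0.12 higher in MINO (adjusted p = 0.0232) and 0.30 ± 0.12 higher in UPN-1 (adjusted p = 0.0390) than in JEKO, and BID in UPN-1 was -0.48 ± 0.19 against JEKO (adjusted p = 0.0396) and -0.47 ± 0.19 against MINO (adjusted p = 0.0448).

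Several of these calls rest on single libraries. BBC3 in MINO against JEKO lost its call without JEKO replicate 1 (adjusted p 0.0591), JEKO replicate 3 (0.0522) or MINO replicate 2 (0.0634), and in UPN-1 against MINO without MINO replicate 2 (0.0687) or UPN-1 replicate 3 (0.0539). The BAK1 call was lost for MINO without JEKO replicate 2 (0.0915) or MINO replicate 1 (0.0738) and for UPN-1 without any 1 of the 6 libraries (0.0545 to 0.134). BID lost its call against JEKO without any library but JEKO replicate 1 (0.0792 to 0.121), and against MINO without any but MINO replicate 1 (0.0873 to 0.162). MCL1 in UPN-1 against MINO lost it without MINO replicate 1 (0.0685) or 2 (0.0668) or UPN-1 replicate 2 (0.0575) or 3 (0.0576).

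GS716054 raised MCL1 in MINO at both times. At 24 h MCL1 had 247, 248 and 262 CPM with DMSO and 414, 490 and 371 CPM with GS716054. At 72 h it had 254, 230 and 253 CPM with DMSO and 426, 475 and 406 CPM with GS716054. Every treated library lay above every DMSO library at its time. The log2 fold change was 0.72 ± 0.13 at 24 h (adjusted p = 0.0179) and 0.81 ± 0.13 at 72 h (adjusted p = 0.00421, edgeR, quasi-likelihood test over the 12 MINO libraries). MCL1 was the only member to pass in either comparison, out of 9 tested, where 2.39% and 5.56% of the 15028 genes tested passed. The median log2 fold change of the 9 members was 0.50 at 24 h and 0.41 at 72 h. All genes tested had medians of 0.005 and -0.03, and BCL2L11 was not tested. MCL1 lies on chromosome 1 at 150560895 to 150579738, minus strand, and its gene-level counts do not separate the long isoform, which protects cells, from the short one, which does not.

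At 24 h the MCL1 call was kept without GS716054 replicate 3 (adjusted p 0.0295) and ended with the removal of DMSO replicate 1 (0.0965), 2 (0.0779) or 3 (0.0719), or of GS716054 replicate 1 (0.0622) or 2 (0.113). At 72 h it was kept without any single library (0.00587 to 0.0216) and without both libraries numbered 2 (log2 fold change 0.69, adjusted p = 0.00230), but lost when only the 6 libraries compared were fitted (adjusted p = 0.0760). With both 72 h libraries numbered 2 left out of the MINO fit, 5 of 9 members passed at 24 h, all higher (MCL1, BCL2L1, BCL2A1, BBC3 and BCL2), with 19.6% of all genes. MCL1 at 24 h then had 0.71 ± 0.10 (adjusted p = 3.20e-04), BCL2A1 2.31 ± 0.45 (0.00285), BBC3 0.66 ± 0.18 (0.0185), BCL2 0.52 ± 0.15 (0.0233) and BCL2L1 0.48 ± 0.16 (0.0497). The share of all genes called rose with the members' count, from 2.39% in the 12-library fit.

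Within a time, DMSO and GS716054 libraries of MINO with the same number deviated together from their group means. At 24 h this was weak, with correlations of 0.102 to 0.207, which limits the paired calls at 24 h. These values lay close to those of JEKO (0.046 to 0.186) and UPN-1 (0.069 to 0.169), which missed the cut-off of 0.1. At 72 h, however, DMSO replicate 3 correlated more with GS716054 replicate 1 (0.254) than with GS716054 replicate 3 (0.221). DMSO replicate 1 and GS716054 replicate 3 also correlated there (0.17). The numbers thus do not clearly pair replicates 1 and 3 of MINO at 72 h, a limit of the paired calls at that time. A fit with the number as a block within each time, chosen after seeing the data and called the paired fit here, called 5 of 9 members at 24 h and 5 of 9 at 72 h, with 15.8% and 20.2% of all genes. All were higher with GS716054. MCL1, BCL2L1, BCL2A1 and BBC3 passed at both times, BCL2 at 24 h alone and BAX at 72 h alone. MCL1 had 0.71 ± 0.13 at 24 h (adjusted p = 0.00223) and 0.81 ± 0.13 at 72 h (adjusted p = 7.02e-04) in this fit. Without both 72 h libraries numbered 2, the paired fit called 6 of 9 at 24 h with 26.6% of all genes, PMAIP1 being added (0.26 ± 0.09, adjusted p = 0.04998). At 72 h it called the same 5 with 23.1% of all genes.

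**Figure D3:**
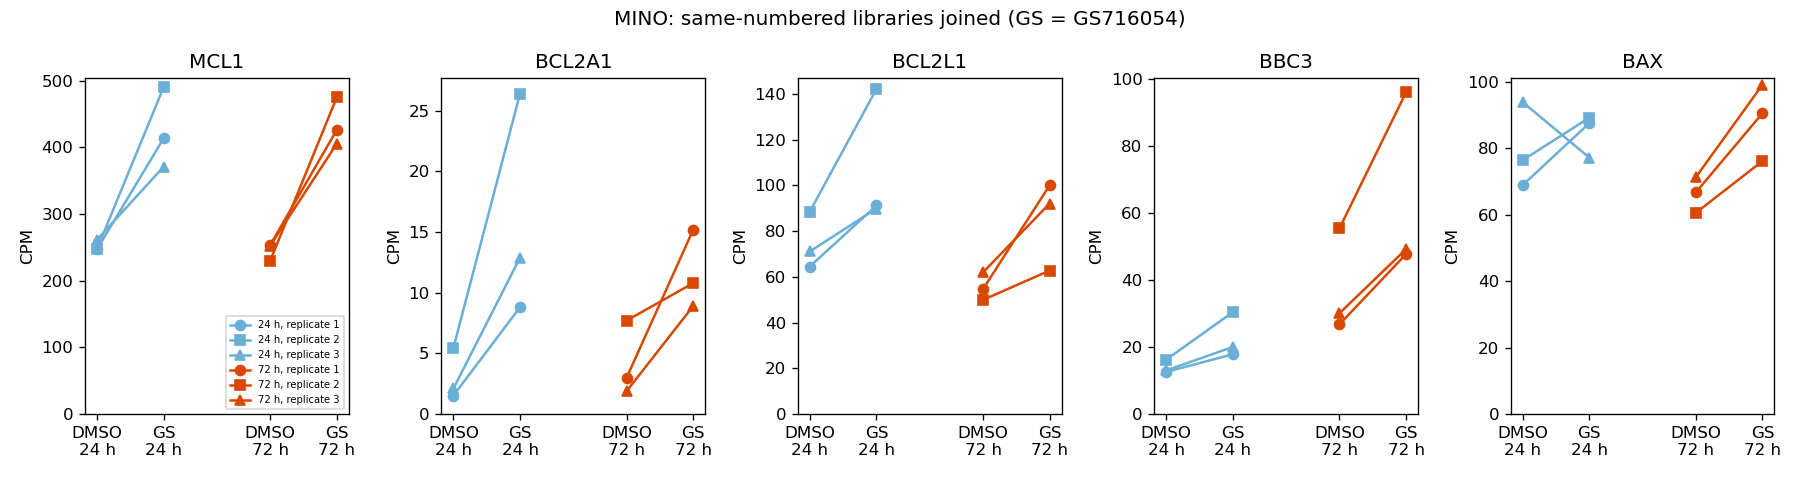
CPM (vertical axes from 0) of 5 members in the MINO libraries, with a line joining the DMSO and GS716054 library of the same number and time. All 6 lines rise for MCL1, BCL2A1, BCL2L1 and BBC3, and 1 line falls for BAX at 24 h, from 93.8 to 77.1 CPM. The 5 members shown are those that the paired fit called at 72 h, so the rises are no separate evidence.

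BCL2A1 had the largest fold change of the members in MINO. At 24 h it had 1.53, 5.48 and 2.11 CPM with DMSO (13, 64 and 24 reads) and 8.81, 26.4 and 12.9 CPM with GS716054 (81, 285 and 143 reads), and the groups did not overlap. At 72 h it had 3.00, 7.71 and 1.90 CPM with DMSO and 15.2, 10.8 and 8.91 CPM with GS716054, again without overlap. The log2 fold change was 2.34 ± 0.57 at 24 h and 1.501 ± 0.55 at 72 h, with adjusted p of 0.0510 and 0.13. In the paired fit it was 2.40 ± 0.32 (adjusted p = 3.15e-04) and 1.61 ± 0.30 (adjusted p = 0.00243). Without the 72 h libraries numbered 2 the 72 h value was 2.27 (adjusted p = 0.0166), more than 1.5 times the fold with them. Without DMSO replicate 2 the 24 h value was 3.09 and the 72 h value 2.201, each also over 1.5 times the fold with all libraries, and single removals at 24 h gave 1.77 to 3.09.

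BCL2L1 had 64.5, 88.5 and 71.1 CPM with DMSO and 91.2, 142 and 89.8 CPM with GS716054 at 24 h in MINO. At 72 h it had 54.6, 49.9 and 61.9 CPM with DMSO and 100, 62.7 and 92.0 CPM with GS716054. No treated library was below a DMSO library of its time. The unpaired log2 fold change was 0.50 ± 0.22 (adjusted p = 0.248) and 0.60 ± 0.22 (adjusted p = 0.122), and the paired one 0.48 ± 0.12 (adjusted p = 0.0154) and 0.58 ± 0.12 (adjusted p = 0.00462). BCL2 had 94.3, 105 and 91.5 CPM with DMSO and 121, 190 and 118 CPM with GS716054 at 24 h (paired 0.50 ± 0.14, adjusted p = 0.0256, unpaired adjusted p = 0.474). At 72 h the BCL2 libraries numbered 2 were the highest of each group, at 430 CPM with DMSO and 351 CPM with GS716054, the others lay between 159 and 195 CPM, and the paired difference was 0.07 ± 0.14 (adjusted p = 0.756).

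Among the BH3-only genes of MINO, BBC3 rose in the paired fit. It had 12.6, 16.3 and 13.04 CPM with DMSO and 17.8, 30.4 and 20.0 CPM with GS716054 at 24 h, and 26.8, 55.4 and 30.1 against 47.7, 96.0 and 49.2 CPM at 72 h. The treated and DMSO groups overlapped at 72 h through replicate 2 with DMSO, while each treated library exceeded the DMSO library of its number. These rises are no separate evidence, since the paired fit called BBC3. The paired log2 fold change was 0.66 ± 0.13 at 24 h (adjusted p = 0.00394) and 0.77 ± 0.12 at 72 h (adjusted p = 5.76e-04), and the unpaired adjusted p was 0.305 and 0.164. PMAIP1 differed by 0.27 ± 0.17 at 24 h and -0.15 ± 0.17 at 72 h, and BID by 0.001 ± 0.24 and -0.43 ± 0.24, with no call in either fit of the 12 libraries. The lowest BID value in MINO, 21.4 CPM, was in the 72 h GS716054 library numbered 2, against 43.2 CPM in each of its replicates.

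Of the effectors in MINO, BAX had 66.7, 60.5 and 71.2 CPM with DMSO and 90.5, 76.1 and 99.0 CPM with GS716054 at 72 h, without overlap. Its unpaired log2 fold change was 0.41 ± 0.15 (adjusted p = 0.123), and the paired one 0.40 ± 0.12 (adjusted p = 0.0325). BAK1 had -0.07 ± 0.12 at 24 h and 0.01 ± 0.12 at 72 h, with adjusted p of 0.805 and 0.963. Without the MINO 72 h libraries numbered 2 and without the block, 5 of 9 members passed at 72 h (MCL1, BCL2L1, BCL2A1, BBC3 and BAX), with 14.4% of all genes. Leaving out single libraries called BCL2L1 without GS716054 replicate 2 (adjusted p 0.0442), and BCL2A1 (0.0308) and BBC3 (0.0332) without DMSO replicate 2.

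**Figure D4:**
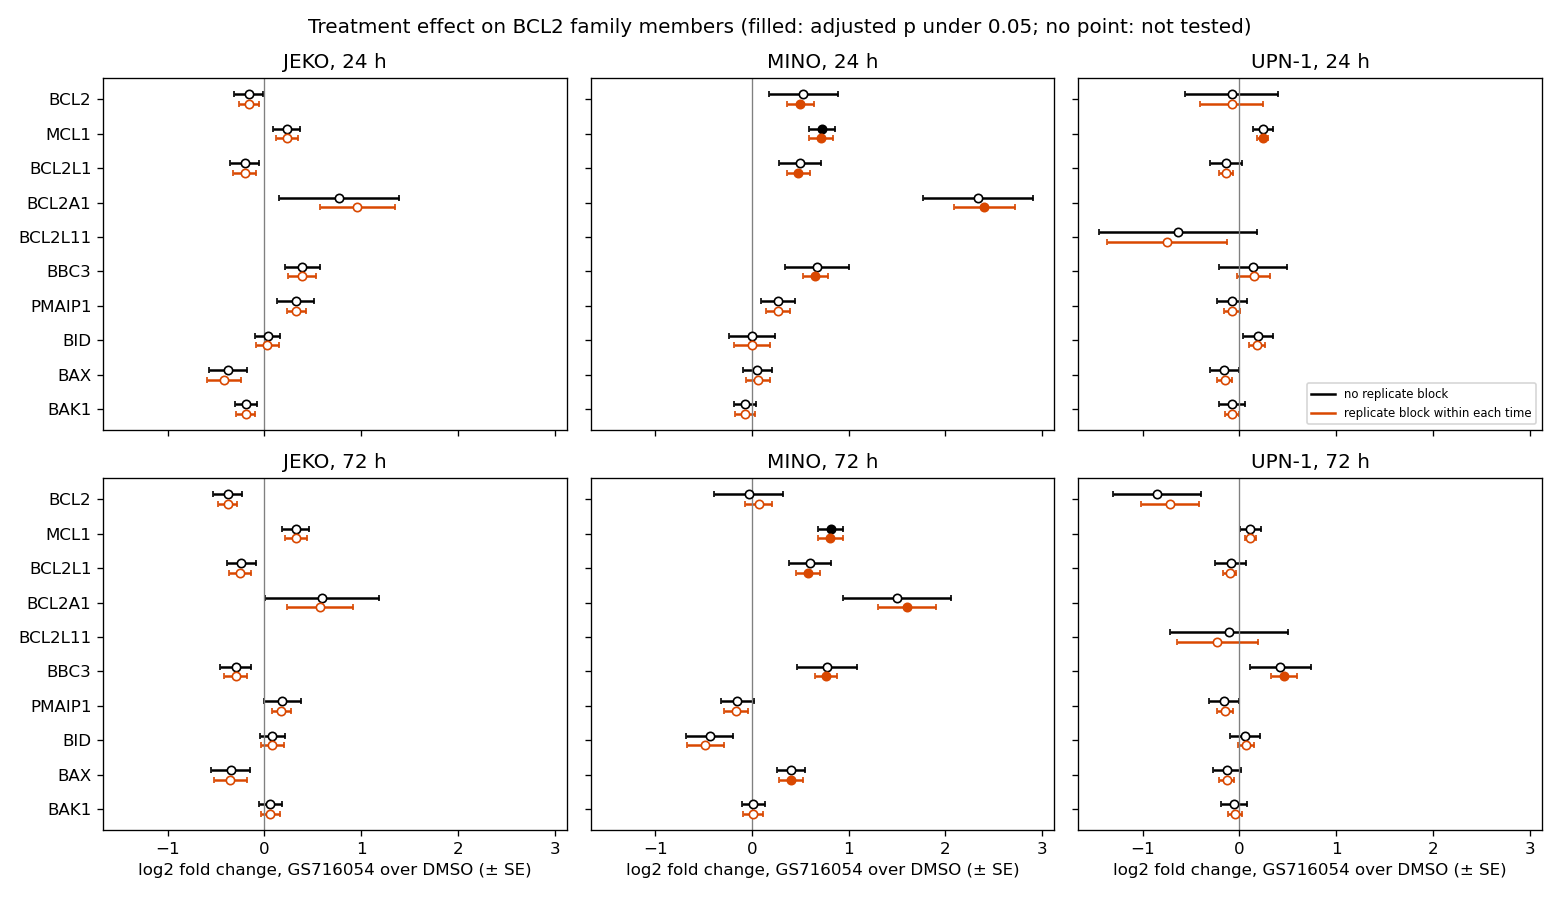
Log2 fold change of GS716054 over DMSO (horizontal axis, ± SE) for each member in each line and time, without the replicate block (black) and with it (orange), filled where the adjusted p is under 0.05. MCL1 in MINO is filled in both fits at both times, MCL1 in UPN-1 at 24 h is filled with the block alone, and no member is filled in JEKO.

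In JEKO no member passed. The members called were 0 of 9 at 24 h (1 at an unadjusted p under 0.05, 0 with DESeq2), with 0.018% of 16690 genes called, and 0 of 9 at 72 h (2 at an unadjusted p under 0.05, 0 with DESeq2), with 0.3% called. The paired fit at 72 h called 0 of 9 with 3.34% of all genes, and 4 members had an unadjusted p under 0.05. The share of all genes at that unadjusted cut-off is not given. Such counts, here and below, are thus no result about the members or other gene lists. MCL1 had 362, 325 and 349 CPM with DMSO and 438, 422 and 368 CPM with GS716054 at 24 h, and 316, 332 and 361 against 432, 436 and 392 CPM at 72 h. All treated libraries lay above all DMSO libraries of their time, given as a description without the share of all genes that did so. The log2 fold changes were 0.23 ± 0.14 and 0.32 ± 0.14, with edgeR adjusted p of 1.00 and 0.523, so a rise was not shown. BCL2 at 72 h had 155, 203 and 160 CPM with DMSO and 135, 154 and 109 CPM with GS716054 (-0.38 ± 0.15, adjusted p = 0.474, and 0.0694 in the paired fit). The median over the 9 members was 0.03 at 24 h and 0.06 at 72 h, and that of all genes -0.006 and 0.004.

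In UPN-1 no member passed without the block either. The edgeR count was 0 of 9 at 24 h (1 at an unadjusted p under 0.05, 0 with DESeq2), with 0.0262% of 15248 genes called, and 0 of 9 at 72 h (0 at an unadjusted p under 0.05, 0 with DESeq2), with 0.334% called. The paired fit called 1 of 9 at 72 h, BBC3, with 7.47% of all genes. BBC3 had 19.7, 17.5 and 6.64 CPM with DMSO and 21.2, 25.4 and 11.6 CPM with GS716054. Each treated library exceeded the DMSO library of its number although the groups overlapped. This is no separate evidence, since BBC3 is shown for its call in the paired fit. The paired log2 fold change was 0.46 ± 0.14 (adjusted p = 0.0455). MCL1 at 24 h had 308, 317 and 316 CPM with DMSO and 390, 356 and 376 CPM with GS716054, without overlap (0.24 ± 0.11, adjusted p = 1.00). The numbers did not meet the criterion for pairing in UPN-1 at 24 h, and a fit with the block there called 1 of 9 members, MCL1 (adjusted p = 0.0336), with 1.5% of all genes. At 72 h MCL1 had 293, 317 and 327 against 307, 344 and 351 CPM, with overlap (0.11 ± 0.11, adjusted p = 0.964). BCL2L11 at 72 h had 30, 27 and 15 reads with DMSO and 20, 43 and 8 reads with GS716054, too few to resolve its difference of -0.10 ± 0.61. The members' median was -0.08 at 24 h and -0.09 at 72 h, and that of all genes 0 and -0.002.

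The effect of GS716054 on MCL1 differed among the lines at 72 h. An edgeR test of the 3 effects against each other, over 36 libraries, gave an adjusted p of 0.0328 at 72 h, where MCL1 was the 1 member called of 10 and 1.01% of 17980 genes were called. The MCL1 log2 fold changes at 72 h were 0.81 ± 0.13 in MINO, 0.32 ± 0.14 in JEKO and 0.11 ± 0.11 in UPN-1. At 24 h they were 0.72 ± 0.13, 0.23 ± 0.14 and 0.24 ± 0.11, and the test gave an adjusted p of 0.233. At 24 h edgeR called 0 of 10 members with 0.106% of all genes, 2 members had an unadjusted p under 0.05, and DESeq2 called 1, MCL1, with 0.918% of all genes. With the block within each time, 4 of 10 members passed at 72 h (MCL1, BCL2L1, BBC3 and BAX) with 9.78% of all genes, and their adjusted p were 0.00434, 7.70e-04, 4.79e-04 and 0.0249. BCL2L1 had 0.60 ± 0.22 in MINO, -0.24 ± 0.15 in JEKO and -0.09 ± 0.16 in UPN-1 at 72 h, without the block. Without both MINO 72 h libraries numbered 2, 0 of 10 members passed (5 at an unadjusted p under 0.05), with 0.721% of all genes, and MCL1 had an adjusted p of 0.189. The fit with the block and without those libraries called 5 of 10 (MCL1, BCL2L1, BBC3, BAX and BCL2) with 9.25% of all genes, and MCL1 had an adjusted p of 0.0227. Leaving out any 1 of 9 libraries also ended the MCL1 call at 72 h: MINO DMSO replicate 1, 2 or 3, MINO GS716054 replicate 1 or 2, UPN-1 DMSO replicate 2 or 3 and UPN-1 GS716054 replicate 1 or 2 (adjusted p 0.0516 to 0.0985).

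The effect at 72 h did not differ detectably from that at 24 h for any member in any line. Of 9 members tested a line with edgeR, 0 were called in JEKO (1 at an unadjusted p under 0.05), 0 in MINO and 0 in UPN-1 (0 at an unadjusted p under 0.05 in each), and DESeq2 called 0 in all 3. The share of all genes that passed was 0% for JEKO, 0.0133% for MINO and 0% for UPN-1. Without both MINO 72 h libraries numbered 2, 0 of 9 members were called in MINO (1 at an unadjusted p under 0.05) with 0.335% of all genes, and with the block as well 0 of 9 (2 at an unadjusted p under 0.05) with 4.01%. The BBC3 effect in JEKO changed by -0.69 ± 0.24 from 24 h (6.17, 8.71 and 6.56 CPM with DMSO, 10.3, 10.7 and 7.497 CPM with GS716054) to 72 h (45.4, 40.7 and 40.3 against 35.8, 32.7 and 34.2 CPM), with an adjusted p of 1.00. At 72 h the treated JEKO libraries were all below the DMSO ones for BBC3.

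With DMSO alone, BBC3, BCL2 and BAK1 changed with culture time in JEKO. BBC3 rose from 7.15 ± 1.37 CPM at 24 h to 42.2 ± 2.84 CPM at 72 h (SD, n = 3 each), a log2 fold change of 2.56 ± 0.18 (edgeR adjusted p = 1.12e-05). BCL2 rose from 114, 112 and 102 to 155, 203 and 160 CPM (0.66 ± 0.15, adjusted p = 0.00645), and BAK1 fell from 62.4, 58.1 and 64.2 to 39.0, 35.9 and 39.6 CPM (-0.69 ± 0.12, adjusted p = 0.00158). None of these 3 genes overlapped between times, which is no separate evidence, since they were chosen by their calls in this comparison. The 3 of 9 members called compare with 31.7% of all genes in JEKO, so the share is close to that of all genes. With all 36 libraries in 1 fit the BCL2 call was lost (adjusted p 0.114).

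In MINO edgeR called 0 of 9 members over time in DMSO (3 at an unadjusted p under 0.05), with 0.0932% of all genes, and DESeq2 called 3 with 6.18% of all genes. The 3 were BBC3 (13.97 ± 2.00 to 37.4 ± 15.7 CPM, 1.41 ± 0.33, edgeR adjusted p = 0.108), BCL2 (96.9 ± 6.99 to 249 ± 157 CPM, 1.36 ± 0.36, adjusted p = 0.113) and BAK1 (77.2 ± 2.76 to 51.8 ± 1.99 CPM, -0.57 ± 0.12, adjusted p = 0.0971). BCL2 in MINO at 72 h had 159, 430 and 159 CPM, so the DMSO library numbered 2 set its mean. Without the 72 h libraries numbered 2, edgeR called the same 3 genes with 13.3% of all genes: BBC3 at 1.04 ± 0.19 (adjusted p = 0.00746), BCL2 at 0.73 ± 0.16 (0.0145) and BAK1 at -0.52 ± 0.10 (0.00899).

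In UPN-1 edgeR called 0 of 9 members over time (2 at an unadjusted p under 0.05), with 1.47% of all genes, and DESeq2 called BBC3 alone with 6.73% of all genes. BBC3 had 7.05, 7.60 and 6.74 CPM at 24 h and 19.7, 17.5 and 6.64 CPM at 72 h (1.05 ± 0.33, adjusted p = 0.0916), and the 72 h library numbered 3 was as low as the 24 h libraries. Without it edgeR called 3 members, BBC3 (1.39 ± 0.25, adjusted p = 0.00370), BCL2 (1.30 ± 0.32, 0.0141) and BCL2L1 (0.51 ± 0.16, 0.0416), with 19.6% of all genes. BAK1 had 74.5, 77.1 and 75.7 CPM at 24 h and 65.4, 53.8 and 80.5 CPM at 72 h, with overlap. Whether these changes over time differ between lines was not tested, and time after DMSO cannot be told apart from the age of the culture in this design.

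**Figure D5:**
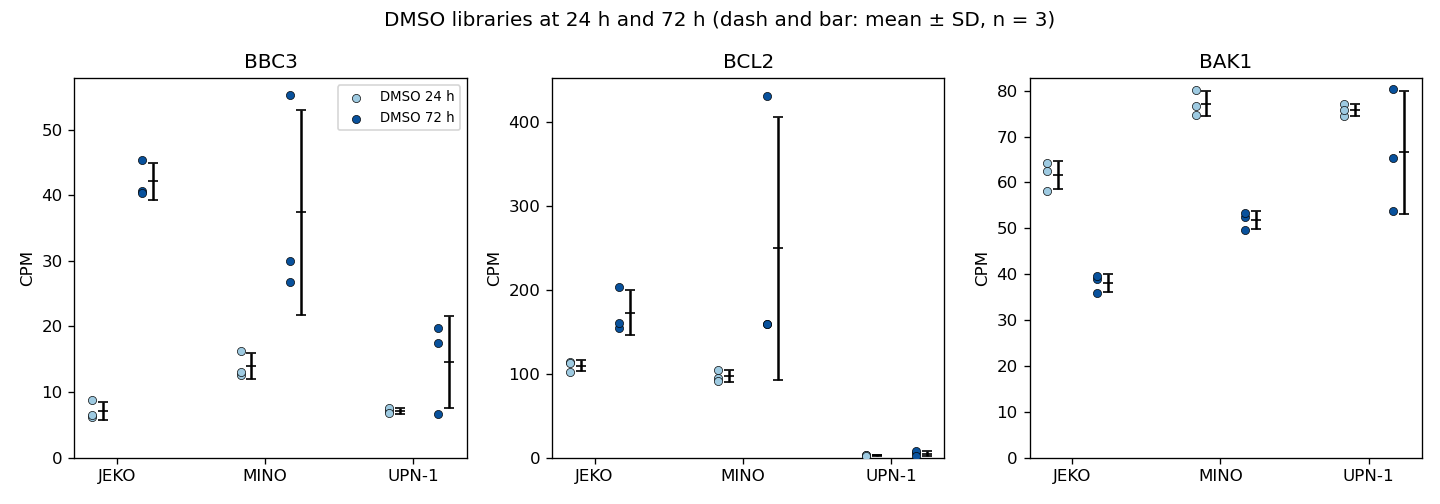
CPM (vertical axes from 0) of BBC3, BCL2 and BAK1 in DMSO libraries at 24 h (light) and 72 h (dark), with points for libraries and dash and bar for mean ± SD, n = 3. BBC3 is higher at 72 h in 8 of 9 libraries, and 1 MINO library of BCL2 stands at 430 CPM.

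Around the 10 members, a list of 37 further genes of the apoptosis pathway was read in the same fits. Without the block, edgeR called 0 of 33 tested in JEKO at 24 h (2 at an unadjusted p under 0.05, 0 with DESeq2) and 0 of 33 at 72 h (2, and 1 with DESeq2, which called 1.36% of all genes), 0 of 32 in UPN-1 at either time (1 at each, 0 with DESeq2), and 0 of 35 in MINO at 24 h (10, and 3 with DESeq2, which called 6.09% of all genes). In MINO at 72 h edgeR called 3 of 35, all higher, with 5.56% of all genes. DESeq2 called 7 of 35 there, 6 higher and 1 lower, with 10.4% of all genes. Without both 72 h libraries numbered 2, edgeR called 14 of 35 at 24 h (11 higher, 3 lower) with 19.6% of all genes and 8 of 35 at 72 h (7 higher, 1 lower) with 14.4%. The gene called lower at 72 h by DESeq2 and without those libraries was HUWE1, a ubiquitin ligase listed under MCL1 and BIM turnover. Any part of HUWE1 in the MCL1 change was not tested. USP9X, listed under the same heading, was among the 14 called at 24 h without those libraries. Both were named after their values were seen. The median log2 fold change of the list in MINO was 0.01 at 24 h and 0.13 at 72 h, and that of all genes 0.005 and -0.03.

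The 3 genes called were BIK and HRK, which encode BH3-only killers, and XIAP, an inhibitor of caspases. BIK had 2.62, 2.68 and 2.81 CPM with DMSO and 8.01, 6.90 and 12.6 CPM with GS716054 (1.74 ± 0.26, adjusted p = 0.00276). HRK had 3.85, 3.86 and 2.35 CPM with DMSO and 10.3, 22.1 and 8.24 CPM with GS716054 (2.01 ± 0.45, adjusted p = 0.0234). XIAP had 82.6, 76.2 and 79.2 CPM with DMSO and 111, 114 and 127 CPM with GS716054 (0.55 ± 0.13, adjusted p = 0.0325). None of the 3 overlapped between groups, which is no separate evidence, since they were chosen by their calls in this comparison. HRK lost its call without DMSO replicate 1 (0.0653) or 3 (0.0960) or GS716054 replicate 2 (0.0669), XIAP without any single library but GS716054 replicate 2 (0.0505 to 0.109), and with only the 6 libraries compared BIK (0.0544), HRK (0.0839) and XIAP (0.138) all did. Without both libraries numbered 2 all 3 passed, BIK at 1.90 ± 0.28 (adjusted p = 6.28e-04), HRK at 1.55 ± 0.45 (0.0340) and XIAP at 0.53 ± 0.14 (0.0213).

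The paired fit called 11 of 35 pathway genes in MINO at 24 h (10 higher, 1 lower) with 15.8% of all genes, and 11 of 35 at 72 h (8 higher, 3 lower) with 20.2%. Without both 72 h libraries numbered 2 it called 18 of 35 at 24 h with 26.6% of all genes and 12 of 35 at 72 h with 23.1%. Among those called at 72 h with all 12 libraries were CFLAR, which encodes the caspase-8 inhibitor FLIP (0.83 ± 0.12, adjusted p = 5.20e-04), BIRC3, an NF-kappaB target that encodes cIAP2 (0.88 ± 0.18, adjusted p = 0.00437), the BH3-only gene BMF (0.87 ± 0.15, adjusted p = 0.00124) and the initiator caspase CASP9 (0.52 ± 0.13, adjusted p = 0.0142). BNIP3, a hypoxia-induced mitophagy gene, was lower (-1.20 ± 0.12, adjusted p = 1.82e-05), with 65.4, 402 and 64.4 CPM with DMSO and 31.7, 169 and 27.2 CPM with GS716054, where the libraries numbered 2 were far above the others. Without them BNIP3 had -1.18 ± 0.13 in the paired fit (adjusted p = 3.43e-06) and -1.17 ± 0.41 in the unpaired one (adjusted p = 0.0717). In JEKO at 72 h the paired fit called 1 of 33 with 3.34% of all genes, BIK (1.88 ± 0.25, adjusted p = 0.00310), which had 1.16, 1.42 and 2.44 CPM with DMSO and 3.35, 6.14 and 9.36 CPM with GS716054. In UPN-1 BIK was at or below 0.869 CPM in each library and was not tested. The paired fit called 3 of 32 there at 72 h, 1 higher and 2 lower, with 7.47% of all genes. BMF was higher (0.53 ± 0.10, adjusted p = 0.00161), and BIRC5, which encodes survivin (-0.29 ± 0.06, adjusted p = 0.00868), and the BH3-only gene BAD (-0.37 ± 0.11, adjusted p = 0.0407) were lower, the last 2 named after their values were seen.

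Over the 36 libraries, with each line centred on its own mean log2 CPM, the genes whose pattern was most like that of MCL1 were DGKG (Pearson r = 0.885), LBH (0.846) and TBC1D9 (0.834). Within the family on the same measure, the strongest correlation was negative, between BBC3 and BAK1 (r = -0.907), followed by BCL2 and BAK1 (r = -0.715), BCL2 and BBC3 (r = 0.701) and MCL1 and BCL2A1 (r = 0.693). These correlations are descriptions over libraries that share treatment and time, and no test was made of them.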

How the data were processed

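RNA of 3 mantle cell lymphoma lines was sequenced in 36 libraries. The authors deposited whole-number read counts per Ensembl gene for each library, made with HISAT2 2.2.1 and HTSeq 0.13.5 on GRCh38, per the submitters' processing notes. Strand setting, overlap rule and filters are not given in the sources used here. Rows that name no gene (43.3% to 45.9% of reads without a feature, 1.98% to 2.60% ambiguous) were left out of library sizes.

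Symbols came from GENCODE v44, which named 57532 of 58302 IDs. Groups were taken from the sample labels. Genes with a count of 10 or more in enough libraries (edgeR's filterByExpr, total of 15) were kept. Treatment and time were tested within a line over its 12 libraries, and lines over all 36, with TMM scaling and edgeR 4.0.16 quasi-likelihood tests (R 4.3.3), Benjamini-Hochberg adjusted over all genes tested, at 0.05. DESeq2 1.42.0 and other settings were alternatives. Simulated counts, drawn without pairing of replicates, tested only the edgeR fit without a block, for GS716054 against DMSO in MINO at 24 h. CPM uses effective library sizes, and SD is over 3 libraries.

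Same-numbered DMSO and GS716054 libraries within a time had correlated deviations from their group means in all 3 pairs, above 0.1, in MINO at 24 h (0.102 to 0.207) and at 72 h in JEKO (0.277 to 0.562), MINO (0.221 to 0.483) and UPN-1 (0.360 to 0.478), but not in JEKO (0.046 to 0.186) or UPN-1 (0.069 to 0.169) at 24 h. Numbers are from the labels, and a block within each time is therefore given beside those 4 comparisons (with the test among lines at 72 h). In MINO at 72 h different-numbered pairs also passed 0.1: DMSO 1 with GS716054 3 (0.17) and DMSO 3 with GS716054 1 (0.254).

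All 10 members are named. Pathway genes are named where called with or without a block over the whole line (at most 12), as are neighbours within 500000 bases of a member at 3 counts or fewer in a line and the 3 genes most like a member called under treatment. The members and lists were chosen with earlier results of these data known. Promoter sequences are RefSeq's for GRCh38.p14.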

Additional observations from a re-analysis of the deposited data

Results flagged for a closer look

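The effect of GS716054 on MCL1 at 72 h differed among the 3 lines (edgeR test of the 3 effects, adjusted p = 0.03275). Its log2 fold change was 0.81 ± 0.13 (SE) in MINO, 0.32 ± 0.14 in JEKO and 0.11 ± 0.11 in UPN-1, with treated libraries above all DMSO libraries in MINO and JEKO and an overlap in UPN-1. The call was lost without any 1 of 9 of the 18 libraries at 72 h (adjusted p 0.0516 to 0.0985), without both MINO libraries numbered 2 (0.189) and without the low-count filter (0.370).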

How the results depend on the processing

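Of 359 values of single genes under the alternatives, 288 kept direction and side of the threshold, and 1 reversed: BBC3 in MINO against JEKO, at -0.178 with DMSO at 72 h in place of 24 h (cause not tested). Counts of members called were as follows, with the percent of all genes called in brackets. No percent is given for runs with a library left out, so those counts are no result about the members. For DMSO over time in UPN-1 the percent rose from 1.47% to 19.6% without the 72 h library numbered 3. For GS716054 in MINO at 24 h (1 without alternatives), 2 were called with all 36 libraries fitted (4.23%), with DESeq2 (6.09%) or with a minimum count of 50 (3.55%), 3 without the low-count filter (3.85%), 4 with only the 6 libraries compared (18.2%), 5 without the 72 h libraries numbered 2 (19.6%), and 0 to 1 with a library left out. For MINO at 72 h (1), it was 2 with all 36 libraries (7.86%), 4 without the filter (5.46%), 0 with only the 6 libraries (0.691%), 5 without the 72 h libraries numbered 2 (14.4%), and 1 to 3 with a library left out. For DMSO over time in MINO (0), it was 3 with all 36 libraries (3.52%), DESeq2 (6.18%), no filter (6.32%) or no 72 h library numbered 2 (13.3%). For DMSO over time in UPN-1 (0), it was 1 with DESeq2 (6.73%) or no filter (6.43%), and 0 to 3 with a library left out. The test among lines at 24 h (0) gave 1 with DESeq2 (0.918%), and that at 72 h (1) gave 0 without the MINO 72 h libraries numbered 2 (0.721%) and 0 to 1 with a library left out. Without the filter, the test at 72 h called BBC3 (adjusted p 0.0301) in place of MCL1 (0.370), with 1.67% of all genes. MINO against JEKO (5) gave 3 with DMSO at 72 h (54.2%) or without the filter (23.9%) and 4 to 5 with a library left out, UPN-1 against JEKO (6) 4 to 5, UPN-1 against MINO (8) 5 to 7, and DMSO over time in JEKO (3) 3 to 4. The causes were not tested. The other counts kept within 1.5 times.

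The replicate number as a block over the whole line called 3 members in MINO at 24 h (6.61%), 3 in MINO at 72 h (10.2%), 3 for DMSO over time in MINO (12.1%) and 2 in UPN-1 (18.3%), and changed no other count by over 1.5 times. Over the whole line the numbers do not pair all samples (the lowest same-number correlation was -0.132 for JEKO, -0.070 for MINO and 0.016 for UPN-1). The block within each time, an alternative chosen after seeing the data like the runs without libraries numbered 2, called 5 in MINO at 24 h (15.8%), 5 in MINO at 72 h (20.2%), 1 in UPN-1 at 24 h (MCL1, 1.5%), 1 in UPN-1 at 72 h (7.47%), 2 (MCL1 and BCL2L1) among lines at 24 h (5.74%) and 4 at 72 h (9.78%). With that block and without the MINO 72 h libraries numbered 2, it was 6 in MINO at 24 h (26.6%), 5 at 72 h (23.1%) and 5 among lines at 72 h (9.25%).

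Depth limits BCL2L11 in all lines and BCL2A1 in UPN-1, where a library's limit of 3 reads was 0.196 to 0.353 CPM, and gene-level counts cannot separate isoforms. With 3 libraries a group, unadjusted differences of the members below the spread between libraries were not detectable, which does not show that they were absent.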
